A study of Mus musculus with 20 samples.

Results

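The skeletal muscle libraries of a mouse model of tafazzin deficiency were compared between genotypes, 5 from *Taz*-KD animals (A34, A39, A52, A56 and A58) and 5 from wild type (WT) animals (A33, A40, A51, A55 and A57), out of 20 libraries of heart and muscle in all. Members were chosen by the tissue and genotype labels alone. The KD animals carried the ROSA26H1/tetO-shRNA:TAZ transgene, a doxycycline-induced short hairpin RNA against *Taz*, and the WT animals were C57BL/6N. Every animal, WT or *Taz*-KD, was fed chow holding doxycycline (625 mg/kg) up to the age of 20 weeks, so the drug does not separate the groups, whereas the transgene and the knockdown cannot be told apart. RNA came from frozen femur muscle, and which muscles of the femur were taken is not given in the sources used here. Ribosomal RNA was depleted and libraries were strand-specific. Of 53801 genes counted, 16145 passed the expression filter and were tested.

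Tafazzin is the mitochondrial transacylase that remodels cardiolipin, the signature lipid of the inner membrane, and its loss causes Barth syndrome, a disease of heart and skeletal muscle. Stressed mitochondria can switch on the integrated stress response (ISR), in which the transcription factor ATF4 raises genes of serine synthesis, mitochondrial one-carbon (1C) metabolism, amino acid uptake and tRNA charging. Skeletal muscle is a mixture of fast fibres, which use myosin heavy chain IIb (*Myh4*), and slow fibres, which use *Myh7*, together with vessels, connective tissue, nerve and fat.

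The targeted gene was measured first. *Taz* (ENSMUSG00000009995, GRCm38 chromosome X, 74281912 to 74290151, plus strand) had 45.9, 52.6, 51.8, 54.8 and 53.2 CPM (counts scaled to library size with TMM factors) in WT libraries A33, A40, A51, A55 and A57. In *Taz*-KD libraries A34, A39, A52, A56 and A58 it had 12.7, 12.8, 13.4, 12.9 and 15.2 CPM. The genotypes did not overlap, and the mean in *Taz*-KD muscle was 26% of that in WT (13.4 ± 1.05 against 51.7 ± 3.42 CPM, SD, n = 5 each). *Taz* fell by 1.94 on the log2 scale (SE 0.08, adjusted p = 1.9e-06, edgeR quasi-likelihood test with Benjamini-Hochberg adjustment). An exact two-sided permutation test of its log2 CPM gave p = 0.0079, the smallest p that 5 against 5 libraries allow. All 10 labels therefore matched the level of the targeted gene.

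The libraries differed in cell composition as well as in genotype. They held 36429399 to 74361382 counts, with medians of 40343166 in WT and 60763151 in *Taz*-KD. Skeletal muscle genes dominated every library, with *Acta1*, skeletal actin, at 20035 to 39931 CPM. Of the heart genes checked, the atrial natriuretic peptide gene *Nppa* had at most 3 counts in any library. *Myh6* and *Tnni3* were not absent. *Myh6* had 117 to 1287 counts (1.82 to 30.1 CPM, highest in A55 and A40), and *Tnni3* 11 to 107 counts (0.18 to 2.20 CPM). The first principal component held 43.2% of the variance and set WT libraries A33 and A55 at -88.0 and -71.4, against -1.89 to 33.7 for the other 8. The second held 22% and set the same 2 libraries at opposite ends, A33 at 58.7 and A55 at -58.3.

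Each library was scored with the adipocyte and slow fibre marker lists. The white adipocyte score, the mean log2 CPM of 12 adipocyte genes such as *Adipoq* and *Plin1*, was 7.03 in A33, 2.11 in A40, 4.75 in A51, 5.39 in A55 and 1.88 in A57 of the WT group. In *Taz*-KD it was -0.36 in A34, 3.47 in A39, 2.87 in A52, 1.06 in A56 and 2.16 in A58. WT libraries A33, A51 and A55 were thus above every *Taz*-KD library, whereas A40 and A57 lay within the *Taz*-KD range. The slow fibre score, over 11 genes such as *Myh7* and *Tnni1*, ran from 5.36 to 10.8 in WT and from 4.15 to 8.62 in *Taz*-KD, with A55 and A40 the highest. Neither score separated the genotypes by an exact two-sided permutation test: the adipocyte score was 2.39 lower in *Taz*-KD (p = 0.087, adjusted over 13 lists p = 0.28) and the slow fibre score 1.49 lower (p = 0.30, adjusted p = 0.44).

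**Figure D1:**
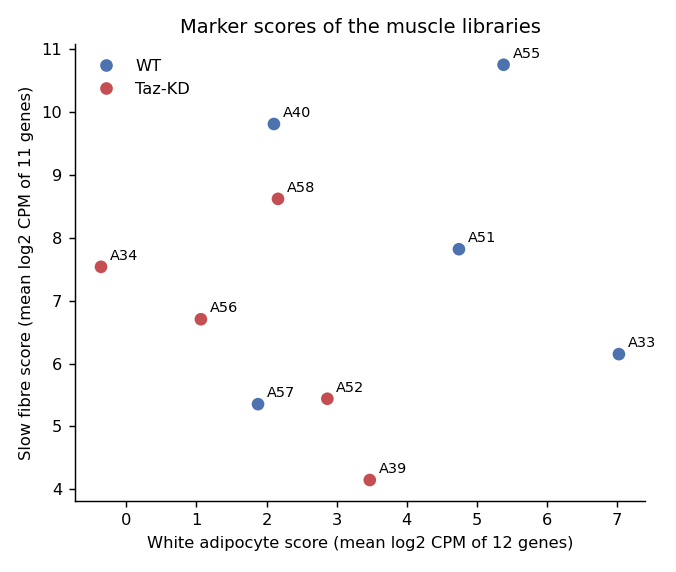
White adipocyte score (x axis, mean log2 CPM of 12 genes) against slow fibre score (y axis, mean log2 CPM of 11 genes), 1 point per muscle library, blue for WT and red for Taz-KD. WT libraries A33, A51 and A55 lie to the right of all Taz-KD libraries, and A55 and A40 lie above all of them.

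The share of each adult myosin heavy chain, from counts per exonic length, gave the same picture of A55. *Myh4* made up 88.4, 82.5, 96.6, 37.0 and 95.0% of the 4 myosins in A33, A40, A51, A55 and A57, and 86.4, 92.0, 98.6, 92.3 and 87.9% in A34, A39, A52, A56 and A58. *Myh7* made up 15.2% in A55 and 4.03% in A40, and at most 1.65% elsewhere. In A55 the other fast myosins, *Myh1* and *Myh2*, made up 16.8 and 31.0%, so fast myosins prevailed in all 10 libraries. The *Myh4* share did not differ between genotypes (79.9 ± 24.6 against 91.4 ± 4.78%, SD, n = 5 each, exact permutation p = 0.43). A33 also held lymphocyte transcripts: the summed level of 12 lymphocyte and neutrophil markers was 206 CPM there and 0.96 to 2.97 CPM in the other 9. In bulk tissue, fewer cells of a type and less RNA per cell cannot be told apart.

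A set of genes could not be read in muscle. In 18 blocks of at least 3 neighbouring protein-coding genes, 87 genes in all, the muscle level was under 1/30 of the heart level. Some blocks hold histone or protocadherin families or heart genes, but others hold genes that muscle fibres need. *Pygm*, muscle glycogen phosphorylase, had 1 to 113 counts per muscle library and 23707 to 28586 per heart library. *Ndufs3*, a core subunit of complex I, had 0 to 28 against 3294 to 4618, and the atrophy ligase gene *Fbxo32* had 0 to 7 against 8948 to 14590. These genes were chosen after their values were seen. Their counts were low in both genotypes and the reason was not tested, so a low count of a gene in such a block is not a measurement of low expression. The blocks held 7 members of the gene lists used here (*Fbxo32*, *Prodh*, *Pygm*, *Ndufs3*, *Rapsn*, *Pgm1* and *Uqcrc1*) and none of the genes whose fold changes are given below.

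Across all genes tested, few differed. The edgeR test called 3 genes at an adjusted p under 0.05, which is 0.0186% of those tested: *Taz*, lower, and *Mthfd2* and *Setd5*, both higher in *Taz*-KD. At an unadjusted p under 0.05, 592 genes were higher (3.67%) and 1816 lower (11.2%). Genes whose *Taz*-KD and WT libraries did not overlap numbered 171 on the higher side (1.06%) and 174 on the lower side (1.08%). DESeq2 called 160 of 17253 genes (0.927%), 36 higher and 124 lower. With the adipocyte and slow fibre scores as covariates, edgeR called 2 genes (0.0124%), *Taz* and *Setd5*, and the lower side shrank most: at an unadjusted p under 0.05, 266 genes were higher (1.65%) and 168 lower (1.04%).

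*Mthfd2*, the mitochondrial methylene-tetrahydrofolate dehydrogenase and cyclohydrolase, had the largest rise among the called genes. It had 4.49, 4.24, 4.05, 4.58 and 3.38 CPM in A33, A40, A51, A55 and A57, and 92.1, 80.9, 24.2, 61.5 and 103 CPM in A34, A39, A52, A56 and A58. The WT libraries hardly varied, A33 and A55 included, whereas the *Taz*-KD libraries spread over 24.2 to 103 CPM with A52 the lowest. The mean was 17.4 times higher in *Taz*-KD (72.3 ± 31.0 against 4.15 ± 0.48 CPM, SD, n = 5 each), a rise of 4.12 on the log2 scale (SE 0.35, adjusted p = 0.00095, edgeR). The gene (ENSMUSG00000005667) lies on the minus strand of chromosome 6, from 83305691 to 83325908. With both scores as covariates the estimate was 4.29 (SE 0.50), with an adjusted p of 0.071, and without A33 and A55 it was 4.21, with an adjusted p of 0.17. The size held in these fits while the edgeR call did not. Leaving out 1 library at a time kept the edgeR call, with an adjusted p of at most 0.013. DESeq2 called the gene without covariates (adjusted p = 4.2e-36) and with both scores (adjusted p = 6.5e-23).

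**Figure D2:**
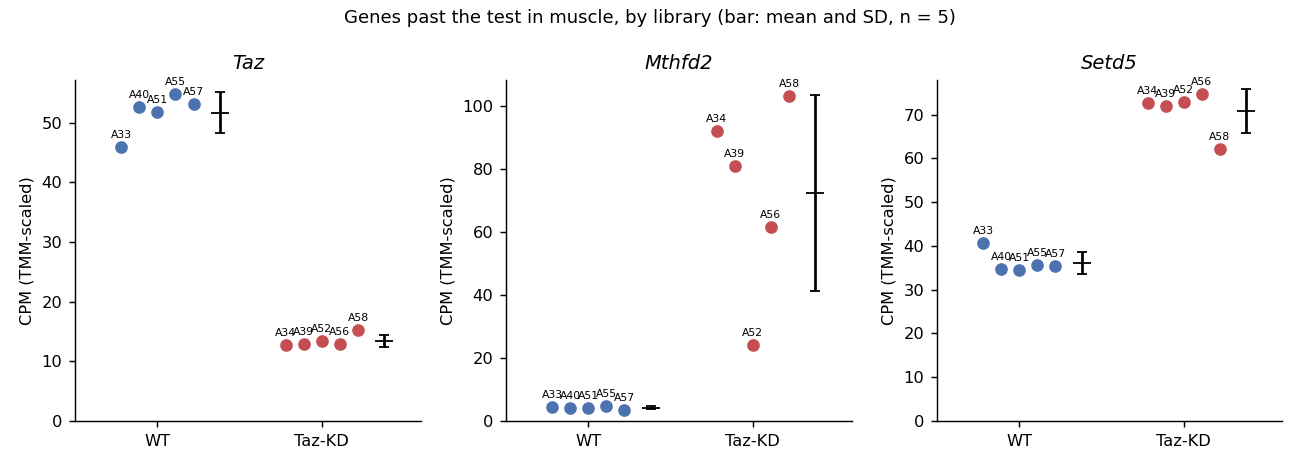
CPM (y axis, from 0) of the 3 genes past the edgeR test in each muscle library, WT in blue and Taz-KD in red, with the mean and SD of 5 libraries as a black bar. Taz is at 12.7 to 15.2 CPM in all Taz-KD libraries, Mthfd2 spreads from 24.2 to 103 CPM among them, and Setd5 is at 62.1 to 74.6 CPM.

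No other member of mitochondrial 1C metabolism was called. Of 12 members, 10 were tested, 1 was called, and their median log2 difference was 0.02, against -0.02 over all genes. *Shmt2*, which makes the one-carbon unit from serine in mitochondria, had 34.4 to 39.7 CPM in WT and 35.7 to 46.7 in *Taz*-KD (0.18, SE 0.09, adjusted p = 0.37, edgeR). *Mthfd1l*, which completes the mitochondrial branch by releasing formate, was at 1.72 to 4.57 CPM in WT and 0.99 to 2.22 in *Taz*-KD (-0.74, SE 0.32, adjusted p = 0.33). *Aldh1l2*, the mitochondrial formyl-tetrahydrofolate dehydrogenase, had 1.48 and 1.5 CPM in A33 and A55, 5.37 to 5.51 in the other WT libraries and 5.22 to 8.61 in *Taz*-KD. Its log2 difference of 0.83 (adjusted p = 0.35) was 0.33 without A33 and A55. Cytosolic *Shmt1* did not overlap between genotypes (4.16 to 9.28 against 10.4 to 12.6 CPM, 0.57, SE 0.19, adjusted p = 0.31).

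The upstream sequences of *Asns*, *Pycr1* and *Gars* are shown because these stress-response genes carry the core of the C/EBP-ATF response element, through which ATF4 acts, and their values are given below. They were chosen after their values were seen, and none passed the edgeR test without covariates. Each is the 250 bases before the RefSeq start on GRCm38.p6, written 5′ to 3′ on the gene's strand, at chr6:7693210-7693459 (minus strand) for *Asns*, chr11:120643749-120643998 (minus strand) for *Pycr1* and chr6:55037751-55038000 (plus strand) for *Gars*. Capitals mark TGATGNAA, searched on both strands.
Asns: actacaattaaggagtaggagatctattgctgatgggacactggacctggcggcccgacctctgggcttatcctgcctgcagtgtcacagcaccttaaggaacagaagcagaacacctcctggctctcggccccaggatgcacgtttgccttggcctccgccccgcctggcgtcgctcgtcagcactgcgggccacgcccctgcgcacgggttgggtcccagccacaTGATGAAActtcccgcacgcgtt
Pycr1: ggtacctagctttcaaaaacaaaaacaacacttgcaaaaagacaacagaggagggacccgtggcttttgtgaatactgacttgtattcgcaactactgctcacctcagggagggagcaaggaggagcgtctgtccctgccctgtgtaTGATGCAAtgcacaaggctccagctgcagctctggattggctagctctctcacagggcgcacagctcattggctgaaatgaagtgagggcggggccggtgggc
Gars: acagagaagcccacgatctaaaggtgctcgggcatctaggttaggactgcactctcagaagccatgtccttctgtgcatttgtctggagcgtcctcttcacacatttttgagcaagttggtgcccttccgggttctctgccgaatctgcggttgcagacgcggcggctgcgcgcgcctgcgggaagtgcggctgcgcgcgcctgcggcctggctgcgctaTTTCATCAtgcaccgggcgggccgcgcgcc
The motif began 23 bases before the start in *Asns* and 103 bases in *Pycr1*, and lay on the opposite strand 30 bases before the start in *Gars*. Of all 32851 windows of this length, 3.45% held a match, and among the ATF4 targets used here 9 of the 28 with a window did. A match is a description of the letters only. The *Asns* start in RefSeq lies inside the gene as GENCODE places it, and so does its motif. The whole tabled window of *Mthfd2* lies inside the gene as GENCODE places it, so it is not shown.

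*Setd5*, a SET domain gene linked to chromatin regulation, was the third gene called. It had 40.6, 34.7, 34.5, 35.6 and 35.5 CPM in A33, A40, A51, A55 and A57, and 72.7, 71.9, 73.0, 74.6 and 62.1 CPM in A34, A39, A52, A56 and A58. The genotypes did not overlap, and the mean was 1.96 times higher in *Taz*-KD (70.9 ± 4.98 against 36.2 ± 2.51 CPM, SD, n = 5 each), a rise of 0.97 on the log2 scale (SE 0.08, adjusted p = 0.00095, edgeR). Its call held with both scores as covariates (0.97, adjusted p = 0.046) and was lost when scaling used library sizes alone (0.82, adjusted p = 0.15). *Setd5* (ENSMUSG00000034269, chromosome 6, 113077365 to 113153435, plus strand) starts 32 bases from the start of *Gt(ROSA)26Sor*, which lies on the minus strand and runs the other way. The latter is the non-coding gene of the ROSA26 locus, which is the name carried by the transgene. *Gt(ROSA)26Sor* had 6.65, 4.11, 4.25, 6.43 and 4.27 CPM in A33, A40, A51, A55 and A57, and 9.61, 10.8, 9.44, 10.6 and 14 in A34, A39, A52, A56 and A58.

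That locus was examined further after these values were seen. *Gt(ROSA)26Sor* did not overlap between genotypes but missed the edgeR threshold (1.08, SE 0.18, adjusted p = 0.24), while DESeq2 called it (adjusted p = 6.7e-06), as did edgeR without A33 and A55 (1.36, adjusted p = 0.013). Of 26 genes tested within 500 kb, itself and *Setd5* included, 4 did not overlap on the higher side (1.06% of all genes) and none on the lower side (1.08%). The other 2 were *Thumpd3*, which overlaps it on the opposite strand (10.5 to 14.7 against 15.9 to 18.0 CPM, 0.40, adjusted p = 0.31), and *Mtmr14*, a phosphoinositide phosphatase gene (15.5 to 25.7 against 25.8 to 30.9 CPM, 0.31, adjusted p = 0.33). The strand setting of the counting is not given in the sources used here, so reads of *Thumpd3* and *Gt(ROSA)26Sor* may not be separated. Whether the transgene bears on *Setd5* was not tested, and the transgene and the knockdown are carried by the same animals.

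Within WT, *Phgdh* and *Psat1* of serine synthesis had the order of the adipocyte score, and *Psph* did not. *Phgdh*, which commits glycolytic intermediates to serine, had 39.7, 2.17, 10.9, 17.3 and 1.72 CPM in A33, A40, A51, A55 and A57, and 3.16, 4.65, 2.78, 2.37 and 6.40 CPM in A34, A39, A52, A56 and A58. Its WT levels followed the order of the adipocyte score, with A33, A55 and A51 above every *Taz*-KD library and A40 and A57 below every one. The log2 difference was -1.89 (SE 0.75, adjusted p = 0.32, edgeR) without covariates, 0.52 with the adipocyte score, 0.84 (SE 0.61) with both scores, and -0.35 without A33 and A55. None of these passed the test, and the direction changed with the covariate.

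*Psat1*, the aminotransferase of the next step, showed the same order within WT. It had 17.8, 2.47, 5.25, 8.58 and 1.45 CPM in A33, A40, A51, A55 and A57, and 19.4, 15.0, 6.39, 10.9 and 33.1 in A34, A39, A52, A56 and A58. Its log2 difference was 1.25 (SE 0.64, adjusted p = 0.37), and 3.11 (SE 0.78) with both scores, where DESeq2 called it (adjusted p = 0.018) and edgeR did not. *Psph*, which completes the pathway, differed little (7.39 to 8.89 against 8.08 to 9.27 CPM, 0.14, SE 0.10).

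*Asns*, asparagine synthetase, had the same WT order. It had 10.0, 1.21, 2.34, 3.91 and 0.84 CPM in A33, A40, A51, A55 and A57, and 24.5, 12.9, 4.43, 10.1 and 19.7 in A34, A39, A52, A56 and A58. All *Taz*-KD libraries but A52 lay above all WT libraries. Its log2 difference was 1.97 (SE 0.67, adjusted p = 0.31, edgeR), 3.48 (SE 1.07) with both scores and 3.30 without A33 and A55. DESeq2 with both scores called it (adjusted p = 0.048). The adipocyte score was fitted to 10 libraries of which the fat-rich were all WT, so the covariate and the genotype are partly confounded.

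**Figure D3:**
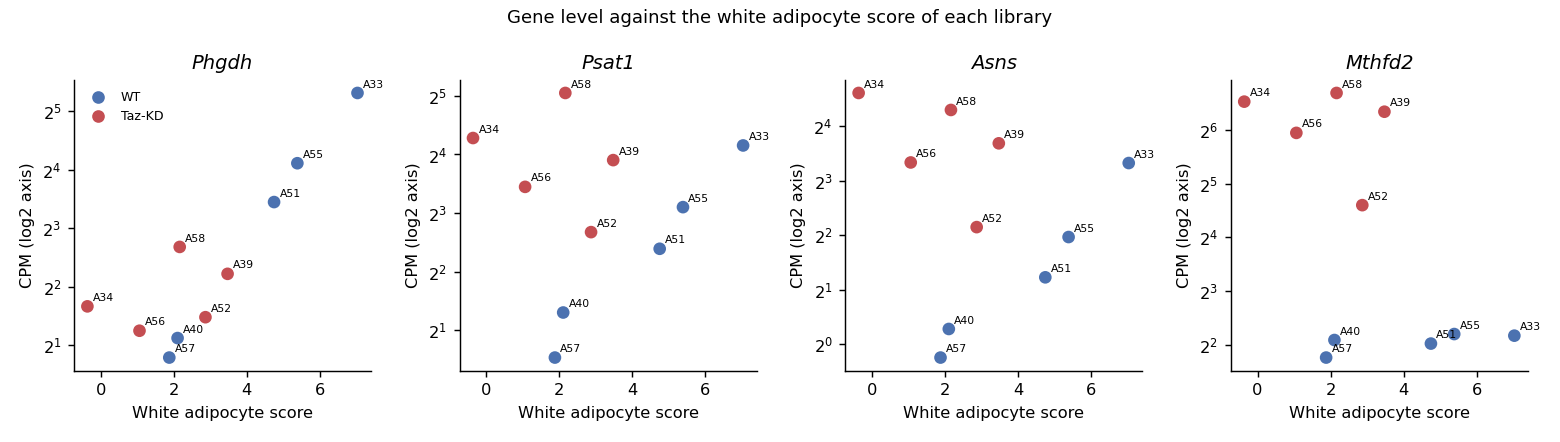
CPM on a log2 axis (y) of Phgdh, Psat1, Asns and Mthfd2 against the white adipocyte score (x) of each muscle library, WT in blue and Taz-KD in red. The WT levels of Phgdh, Psat1 and Asns are highest in A33 and lowest in A57, which have the highest and lowest WT scores, whereas Mthfd2 stays at 3.38 to 4.58 CPM in all WT libraries.

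Among 33 ATF4 targets, 31 were tested. One was called (*Mthfd2*), 25 had a positive and 6 a negative log2 difference, and the median was 0.38 against -0.02 over all genes. At an unadjusted p under 0.05, 10 were higher and 2 lower (3.67% and 11.2% of all genes), and 5 did not overlap, all on the higher side (1.06% of all genes). With both scores as covariates the median was 0.58 and 14 were higher at an unadjusted p under 0.05, with none lower (1.65% and 1.04% of all genes). These genes were known as ISR targets and as members of interest from earlier results of the same data, so the counts describe the list and do not test it.

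*Aldh18a1*, which makes the proline precursor from glutamate, had 5.97, 3.58, 3.56, 3.84 and 3.45 CPM in A33, A40, A51, A55 and A57, and 25.4, 12.5, 7.27, 14.4 and 21.1 in A34, A39, A52, A56 and A58. The genotypes did not overlap, and the log2 difference was 1.98 (SE 0.31, adjusted p = 0.20, edgeR, and 3.7e-07 by DESeq2). *Pycr1*, which makes the last step to proline in mitochondria, had 1.94, 2.93, 4.15, 1.96 and 4.54 CPM in A33, A40, A51, A55 and A57, and 8.47, 5.18, 6.41, 7.39 and 8.05 in A34, A39, A52, A56 and A58. It did not overlap either (1.19, SE 0.26, adjusted p = 0.31, and 0.0094 by DESeq2), and its difference was 0.75 with both scores. The list of proline and glutamate enzymes, 15 tested, had a median of 0.22 with none called by edgeR.

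The pseudokinase gene *Trib3*, an inhibitor of ATF4 that ATF4 itself raises, had 2.27, 1.76, 1.24, 2.85 and 1.64 CPM in A33, A40, A51, A55 and A57, and 13.9, 6.46, 3.34, 5.47 and 11.1 in A34, A39, A52, A56 and A58. It did not overlap between genotypes (2.04, SE 0.38, adjusted p = 0.31, edgeR, and 3.2e-05 by DESeq2). *Slc7a5*, the large neutral amino acid transporter, was at 3.20 to 7.25 CPM in WT and 6.69 to 16.1 in *Taz*-KD (1.22, SE 0.28, adjusted p = 0.31, and 0.0045 by DESeq2). *Atf4* itself had 132 to 175 CPM in WT and 182 to 215 in *Taz*-KD, with no overlap (0.34, SE 0.11, adjusted p = 0.31).

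Other stress genes differed less or varied more. *Gadd45a*, a growth arrest gene of the p53 list and not of the ATF4 list, had 6.85 to 17.8 CPM in WT and 20.6 to 29.9 in *Taz*-KD, with no overlap (0.87, SE 0.22, adjusted p = 0.31, and 0.039 by DESeq2). *Eif4ebp1*, a translation repressor, did not overlap either (49.6 to 61.2 against 62.5 to 72.1 CPM, 0.26, SE 0.09). *Ddit3*, which encodes the stress factor CHOP, had a log2 difference of -0.02 (SE 0.30), with 29.1 CPM in A55 as its highest value, and it overlaps *Mars* on the opposite strand. The mitokine gene *Gdf15* was low in all libraries (0.07 to 0.43 against 0.18 to 0.90 CPM, 1.07, SE 0.52). *Fgf21*, the other mitokine of this response, was below the filter with 4 counts over the WT libraries and 25 over the *Taz*-KD libraries.

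**Figure D4:**
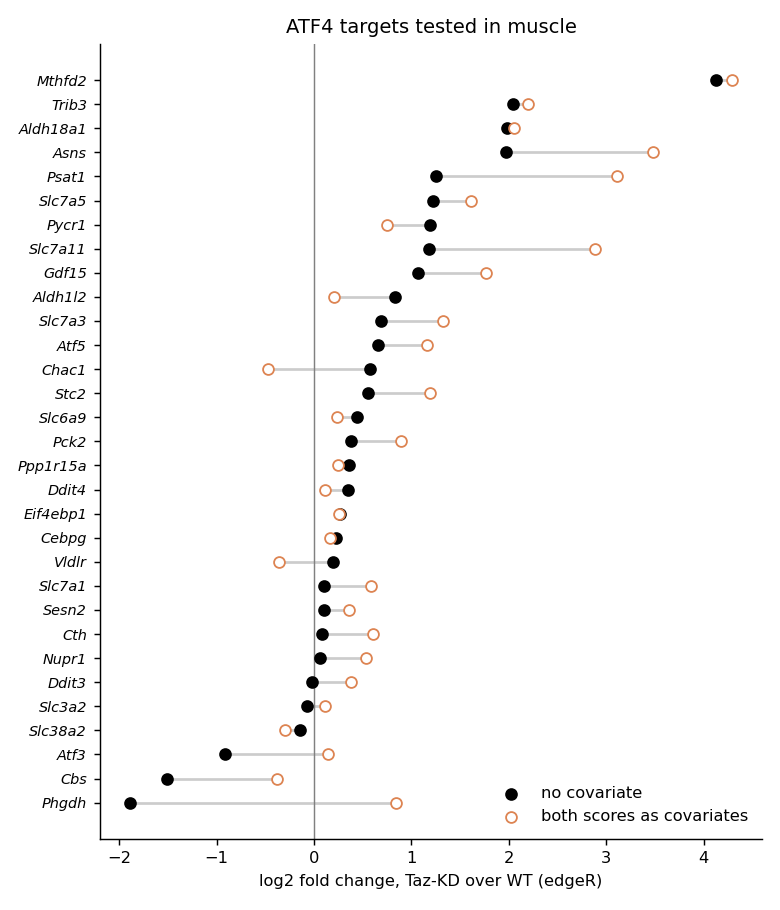
Log2 fold change of Taz-KD over WT (x axis) for the 31 ATF4 targets tested in muscle (y axis), without covariates (black) and with both scores as covariates (open orange). Mthfd2 is at 4.12 and 4.29, and Phgdh moves from -1.89 to 0.84.

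These levels were uneven among the *Taz*-KD libraries. A52 was the lowest *Taz*-KD library for 20 of the 31 ATF4 targets (64.5%), against 22.3% of all genes tested, and A34 was the highest for 15 (48.4%, against 16.6%). For *Mthfd2*, *Aldh18a1*, *Trib3*, *Psat1*, *Asns* and *Slc7a5* alike, A52 was the lowest of the 5. Its *Taz* level of 13.4 CPM lay within the 12.7 to 15.2 CPM of the other 4 *Taz*-KD libraries. Without A52, edgeR called 5 genes, adding *Aldh18a1* and *Cyb5r1*. *Cyb5r1*, a cytochrome b5 reductase gene chosen after its values were seen, had 49.5 to 70.8 CPM in WT and 85.5 to 144 in *Taz*-KD (0.92, SE 0.16, adjusted p = 0.24 with all libraries).

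The cytosolic tRNA synthetases, which charge tRNAs with amino acids, had mostly small positive differences. Of 20 tested, none was called, 19 had a positive log2 difference, 14 were higher at an unadjusted p under 0.05 (3.67% of all genes) and 5 did not overlap, all on the higher side (1.06% of all genes). The median was 0.31, and 0.09 with both scores as covariates, where 2 were higher at an unadjusted p under 0.05 (1.65% of all genes). *Gars*, glycyl-tRNA synthetase, had 56.3, 70.7, 67.4, 53.3 and 68.0 CPM in A33, A40, A51, A55 and A57, and 110, 105, 77.5, 94.0 and 111 in A34, A39, A52, A56 and A58 (0.65, SE 0.13, adjusted p = 0.31, edgeR, and 0.0045 by DESeq2). *Mars* (0.48), *Cars* (0.36) and *Lars* (0.37) had adjusted p = 0.31 each. Of the 17 mitochondrial synthetases, all had a positive difference, with a median of 0.13 that was 0.04 with both scores, and *Ears2* did not overlap (5.36 to 7.19 against 7.62 to 9.78 CPM).

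EdgeR called no gene of fatty acid oxidation or the respiratory chain. The 26 fatty acid oxidation genes had a median of -0.11, none had an unadjusted p under 0.05, and with both scores the median was 0.02. *Cpt2* (53.2 to 89.0 against 56.3 to 91.2 CPM), which returns acyl groups to CoA inside mitochondria, had a log2 difference of 0.07 (SE 0.15), and the carnitine carrier gene *Slc25a20* -0.04 (SE 0.16). *Acadvl*, the very-long-chain acyl-CoA dehydrogenase, had 0.00 (SE 0.22), and *Ppargc1a*, a master regulator of mitochondrial biogenesis, 0.00 (SE 0.25). Differences several times these errors also missed the threshold for other genes, so small differences were not detectable here. *Cd36*, the fatty acid transporter, was at 243 to 578 CPM in WT and 154 to 422 in *Taz*-KD (-0.51, SE 0.32, adjusted p = 0.44, edgeR). *Acot2*, a mitochondrial acyl-CoA thioesterase, had 18.0 to 43.4 CPM in WT and 28.6 to 109 in *Taz*-KD (1.18, SE 0.40, adjusted p = 0.31).

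Respiratory chain genes had medians near 0 without covariates. The 36 nuclear complex I genes tested had a median of 0.00, and the 41 of complexes II to V, *Uqcrc1* included, 0.01. With both scores the medians were 0.10, with 30 complex I genes positive, and 0.13, with 37 genes of complexes II to V positive. *Ndufa12*, an accessory subunit of complex I, was the exception, with 35.8 to 70.0 CPM in WT and 77.0 to 145 in *Taz*-KD and no overlap (1.0, SE 0.22, adjusted p = 0.31, edgeR, and 0.0094 by DESeq2). The 13 mitochondrially encoded mRNAs had a median of 0.11, and -0.14 with both scores, where 9 were negative. Among them *mt-Atp8*, which overlaps *mt-Atp6* so that its counts are uncertain, was at 2.22 to 4.06 CPM in WT, at 18.0 and 13.2 in A34 and A52, and at 3.67 to 6.33 in the other *Taz*-KD libraries. Mitochondrial proteases and chaperones had a median of 0.20 that was 0.07 with both scores, with *Dnaja3* at 0.45 (adjusted p = 0.31). In the cristae list *Apoo*, a component of the MICOS complex, was at 0.42 (adjusted p = 0.31).

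The medians of contractile and calcium lists moved with each score. All 11 slow fibre genes had a negative difference (median -2.14), with none called, and the 14 fast fibre genes a median of 0.37. *Sln*, sarcolipin, the inhibitor of the calcium pump, had 2.02, 27.9, 6.54, 88.8 and 0.82 CPM in A33, A40, A51, A55 and A57, and 1.02, 2.68, 1.24, 0.37 and 2.38 in A34, A39, A52, A56 and A58. The high values were those of A55 and A40, the WT libraries with the highest slow fibre scores. Its log2 difference of -4.04 (SE 1.17, adjusted p = 0.31, edgeR, and 0.031 by DESeq2) was -0.40 with both scores. *Tpm3*, slow tropomyosin, went from -2.75 to -0.07 and *Myh7* from -1.96 to 0.18, as members of the list that defines the score. The 20 calcium handling genes had a median of 0.28, which was 0.15 with the slow fibre score, 0.08 with the adipocyte score and -0.08 with both. The fast fibre median was 0.16 with the slow fibre score and 0.14 with the adipocyte score. Of the acetylcholine receptor subunits, *Chrne* was at 9.53 to 22 CPM in WT and 17.5 to 32.9 in *Taz*-KD (0.71, SE 0.28, adjusted p = 0.32).

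The median of glucose metabolism genes changed sign with the covariates. The 22 glycolysis and glycogen genes tested, *Pygm* included, had a median of 0.29, and -0.11 with both scores. *Slc2a4*, the insulin-responsive glucose transporter of muscle, had 400 to 639 CPM in WT and 648 to 716 in *Taz*-KD, with no overlap (0.39, SE 0.16, adjusted p = 0.32, edgeR), and 0.10 with both scores. The secreted peroxidase gene *Gpx3* was at 764 CPM in A39 and 137 to 366 in all others.

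Adipocyte genes were highest in WT libraries A33, A51 and A55. All 12 white adipocyte markers had a negative difference (median -3.05), 11 of them at an unadjusted p under 0.05 (11.2% of all genes). Their summed level was 80.1 to 3105 CPM in WT and 25.4 to 350.3 in *Taz*-KD. *Lep*, leptin, had 91.1, 2.25, 26.2, 42.7 and 2.73 CPM in A33, A40, A51, A55 and A57, and 0.14, 2.33, 1.62, 0.58 and 1.86 in A34, A39, A52, A56 and A58 (-4.66, SE 1.08, adjusted p = 0.31, edgeR, and 0.0039 by DESeq2). With both scores, to which it contributes, it was at -1.30. *Adipoq* (-3.13) and *Plin1* (-3.66) likewise had adjusted p = 0.31. In A40 and A57 all 3 genes were within the *Taz*-KD range or close to it. The 16 interferon-induced genes had a median of -0.49 that was 0.05 with both scores, with *Mx1* at 2.97 CPM in A33 and 0.06 to 0.52 in the other 9.

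The median of connective tissue genes was negative with and without covariates, and edgeR called none. Of 22 collagen and matrix genes, 21 had a negative difference, 13 of them at an unadjusted p under 0.05 (11.2% of all genes). The median was -0.50, or -0.22 with both scores. With both scores, 1 gene was lower at an unadjusted p under 0.05 (1.04% of all genes). *Fn1*, fibronectin, had 58.4, 64.9, 61.4, 66.3 and 63.7 CPM in A33, A40, A51, A55 and A57, and 51, 50.5, 53.7, 52.3 and 42.8 in A34, A39, A52, A56 and A58. The genotypes did not overlap (-0.33, SE 0.08, adjusted p = 0.31), and the difference was -0.38 with both scores. *Col1a1* was at 61.5 to 114 against 47.9 to 70.6 CPM (-0.62, and -0.18 with both scores), and *Postn* at 44.6 and 36.9 CPM in A33 and A55 and 4.11 to 12.2 in the other 8 (-1.81, and -0.16 with both scores, 0.029 by DESeq2 without scores). *Gsn*, gelsolin, did not overlap (845 to 1684 against 582 to 801 CPM, -0.75, SE 0.19, adjusted p = 0.31, and 0.027 by DESeq2), and its difference was -0.42 with both scores. *Pecam1* of endothelium (-0.52) and *C1qa* of macrophages (-0.73) had adjusted p = 0.31 each, and were at -0.31 and -0.19 with both scores.

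**Figure D5:**
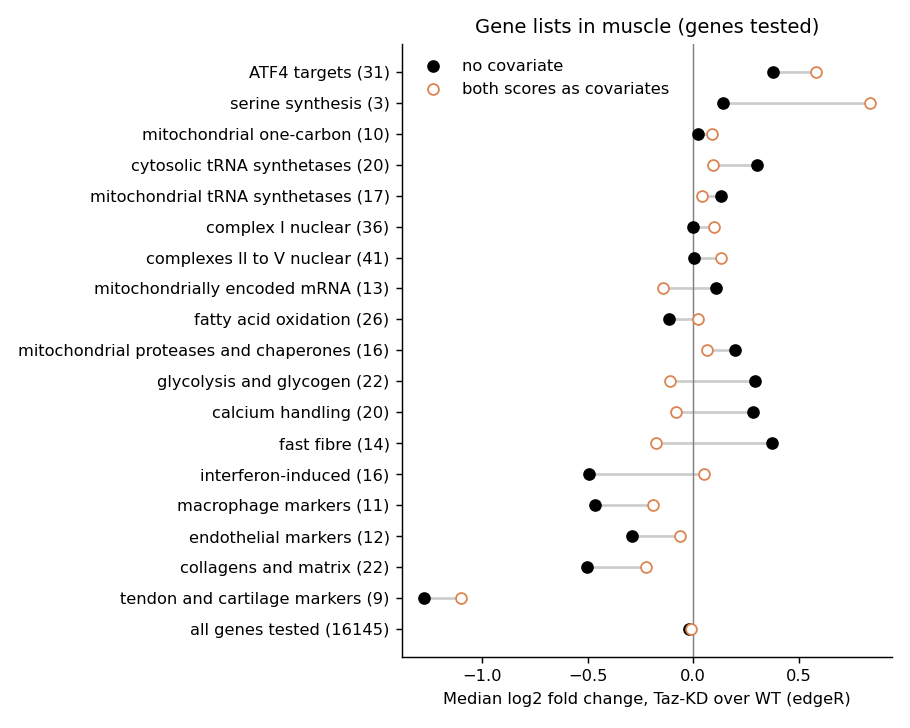
Median log2 fold change of Taz-KD over WT (x axis) for gene lists in muscle (y axis, number of genes tested in brackets), without covariates (black) and with both scores as covariates (open orange). The ATF4 targets are at 0.38 and 0.58. The interferon-induced, fast fibre, glycolysis, calcium, fatty acid oxidation and mitochondrially encoded mRNA lists move to the other side of 0.

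Of the remaining lists, heat shock genes had a median of -0.28, with *Dnajb1* not overlapping (7.36 to 11 against 6.00 to 6.86 CPM, -0.42, SE 0.13) and *Hspa1a* at -1.26 (SE 0.48). Immediate early genes had a median of -0.32, led by *Fos* at -1.09 (SE 0.38), and 0.09 with both scores. In the clock list, with a median of 0.04, *Npas2* did not overlap (0.34 to 0.58 against 0.10 to 0.31 CPM, -1.11, SE 0.32). None of these genes passed the edgeR test (adjusted p = 0.31 each). The ER unfolded protein response had a median of -0.08 and the NRF2 list -0.01.

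The muscle effect was set against the heart effect for *Taz* and the stress-response genes in 1 edgeR fit of all 20 libraries, in which 952 of 20612 genes (4.62%) differed between tissues in their response. The *Taz* effect did not differ between the tissues at this threshold (-0.18, SE 0.11, adjusted p = 0.38). *Mthfd2* rose less in muscle than in heart, by 2.65 on the log2 scale (SE 0.40, adjusted p = 0.00067), from a WT mean of 1.49 CPM to 167 in heart. *Asns* differed by -4.41 (SE 0.73, adjusted p = 0.0016), *Psat1* by -3.29 (adjusted p = 0.0085), *Phgdh* by -7.70 (adjusted p = 4.0e-05), *Aldh18a1* by -1.50 (adjusted p = 0.015), *Trib3* by -2.75 (adjusted p = 0.00063) with *Atf4*, added after its values were seen, at -1.89 (adjusted p = 6.6e-06). No score was a covariate in this fit. Its dispersion was estimated for each gene over both tissues, and for muscle it called 167 genes, against 3 in the fit of muscle alone. Its p-values therefore do not rest on the spread of the muscle libraries alone. Heart and muscle libraries carry different animal labels, so the tissue and the set of animals cannot be told apart. In muscle alone, *Phgdh* was at -1.89 without and 0.84 with both scores, *Psat1* at 1.25 and 3.11, and *Aldh18a1* at 1.98 and 2.05. How far the differences from heart depend on the scores was not tested. Of *Taz* and the members of the serine, 1C and ATF4 lists, the fit held 44 genes. Of these, 29 differed (4.62% of all genes did), 28 of them with a lower log2 fold change in muscle than in heart and 1 with a higher one. The lists were chosen with earlier results of the same data known, so these counts describe the lists and do not test them. *Gadd45a*, outside those lists, did not pass (-0.57, adjusted p = 0.30). *Setd5*, examined after its values were seen, had a log2 fold change of 0.10 in heart in this fit, in which the muscle value was 1.02 (difference 0.92, SE 0.10, adjusted p = 2.6e-05). Its neighbours, also examined after their values were seen, had positive log2 fold changes of *Taz*-KD over WT within heart. *Gt(ROSA)26Sor* was at 0.87 (adjusted p = 0.00012), *Thumpd3* at 0.43 (adjusted p = 0.0063) and *Mtmr14* at 0.24 (adjusted p = 0.26, edgeR). For none of these neighbours did the tissue difference pass the test.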

How the data were processed

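Total RNA was depleted of ribosomal RNA, made into strand-specific libraries and sequenced, 1 library per animal label. Per the submitters' processing notes and methods, the authors aligned reads with STAR to GRCm38 (mm10) and counted them per gene with featureCounts 1.6.4. The deposited values are raw counts. For the strand setting, multimapping reads and annotation release, no value was given in the sources used here. Genes were matched to GENCODE M21 for symbols and positions (53706 of 53801).

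Counts were filtered with filterByExpr, scaled by TMM and tested with the edgeR quasi-likelihood test (edgeR 4.0.16, robust dispersion, R 4.3.3), with Benjamini-Hochberg adjustment at 0.05. DESeq2 1.42.0 and limma-voom (limma 3.58.1) were alternatives. Scores are mean log2 CPM with a prior count of 2. The procedure was tested on simulated counts. The edgeR and DESeq2 p-values weigh a difference against the spread between the 5 libraries of a genotype, moderated across genes. In the fit of both tissues that spread was taken over all 20 libraries. Permutation p-values set the difference against all 252 splits of the 10 muscle libraries.

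The comparison and the gene lists were chosen with earlier results of these data known. Named genes were *Taz* and some tested members of the serine, 1C and ATF4 lists, picked with values known. The rule also took up to 12 rises and 12 falls past the test, which 3 genes passed, and the 5 smallest p of all genes. Up to 4 members of every other list were named, with the smallest adjusted p or moving against their list. The rest were genes the study measured by qPCR and those said to be chosen after their values were seen.
One result is not reported here.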

Additional observations from a re-analysis of the deposited data

Results flagged for a closer look

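Single libraries stood far from the other 4 of their genotype for some genes, by the gap of the extreme library relative to the group's range. Many genes were looked at, and such gaps also arise by chance. A58 had the highest *Taz* level in *Taz*-KD, 15.2 CPM, and the lowest *Setd5* level, 62.1 CPM. A33 was the highest WT library for *Setd5* (40.6 CPM), *Slc7a11* (2.35), *Aldh18a1* (5.97), *Plin1* (387), *C1qa* (25.4) and *Mx1* (2.97) and for the macrophage score (3.48 mean log2 CPM), and the lowest for *Cyb5r1* (49.5 CPM). A55 was the lowest WT library for *Mtmr14* (15.5 CPM), and A39 the highest *Taz*-KD library for *Gpx3* (764 CPM).

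By the edgeR interaction test without scores as covariates, the *Taz*-KD effect differed between muscle and heart for 29 of 44 genes. Of all 20612 genes, 952 (4.62%) differed. The 44 were *Taz* and members of lists chosen with earlier results of these data known, so the count does not test them. Of the 29, 21 are named here, given as muscle minus heart on the log2 scale. In serine and 1C metabolism the differences were -7.70 for *Phgdh*, -3.29 for *Psat1*, -0.88 for *Psph*, -2.65 for *Mthfd2*, -1.17 for *Shmt2*, -1.93 for *Mthfd1l* and -2.23 for *Aldh1l2*, against 0.44 for *Gcsh*. Among transporters and amino acid enzymes they were -5.39 for *Slc7a11*, -3.12 for *Slc7a5*, -2.15 for *Slc6a9*, -4.41 for *Asns*, -1.57 for *Pck2*, -1.50 for *Aldh18a1* and -2.33 for *Pycr1*. Among regulators and secreted factors they were -2.75 for *Trib3*, -1.99 for *Ddit3*, -2.96 for *Atf5*, -0.68 for *Cebpg*, -3.55 for *Gdf15* and -0.84 for *Eif4ebp1*. *Slc7a11* had only 4 to 160 counts per muscle library. In muscle alone its log2 difference of 1.18 was 2.88 with both scores and 3.72 without A33 and A55.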

How the results depend on the processing

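Of 67 named genes tested, 58 kept their direction in all 28 alternatives, 4 of which were added after the data were seen. The 3 calls became 160 with DESeq2 (36 higher, 124 lower), 48 with DESeq2 and both scores (21 and 27; 2 by edgeR) and 167 in a fit of all 20 libraries (32 and 135). Leaving out 1 library at a time gave 3 to 5 calls, 2 to 4 of them higher, with 5 without A52. Calls on the higher side numbered 1 with library sizes alone, where *Setd5* was lost (adjusted p = 0.15), 1 with both scores and 1 without A33, A51 and A55. Scaling by library sizes alone moved the median of all genes from -0.02 to -0.16. Whether animals with neighbouring numbers were paired is not given in the sources used here. Their deviations from the genotype means correlated at -0.427 to 0.425. This cannot settle pairing, because the libraries also differ in fat and fibre content. A replicate block on the numbers left 1 call by edgeR, *Taz*, and 0 higher (*Mthfd2* adjusted p = 0.068, *Setd5* 0.11). The tRNA synthetase median was 0.093 with both scores, 0.079 with DESeq2 and both, and 0.13 without A33, A51 and A55, where the collagen median was -0.18. The collagen median was -0.24 with the adipocyte score, -0.22 with both and -0.24 with DESeq2 and both.

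Directions changed for 9 genes, and the cause was not tested. *Phgdh* was 0.52 with the adipocyte score, 0.84 with both, 0.84 with DESeq2 and both, and 0.99 without A33, A51 and A55. *Adipoq* was 0.14, 0.13, 0.11 and 0.66 in the same order, and *Plin1* 0.38 without those 3 libraries. *Myh7* was 0.23 with the slow fibre score, 0.18 with both and 0.17 with DESeq2 and both. *Ddit3* was 0.00970 without a filter, 0.36 with the slow fibre score, 0.38 with both, 0.041 with the replicate block, 0.034 with limma-voom, 0.15 with its quality weights, 0.0039 with DESeq2, 0.36 with DESeq2 and both scores, 0.014 in the fit of 20 libraries, 0.25 without A33 and A55, 0.13 without A51 as well, and -0.13 to 0.30 leaving out 1 library. *Cpt2* was -0.068 with library sizes alone, -0.052 with the adipocyte score, -0.068 without A33, A51 and A55, and -0.023 to 0.17 leaving out 1. *Slc25a20* was 0.045 with the slow fibre score, 0.060 with both, 0.023 with quality weights, 0.047 with DESeq2 and both, 0.041 without A33 and A55, and -0.14 to 0.046 leaving out 1. *Acadvl* was -0.015 with upper-quartile factors, -0.11 with library sizes alone, -0.00551 with at least 10 counts in every library, -0.22 with the adipocyte score, -0.059 with both, -0.022 with quality weights, -0.073 with DESeq2 and both, -0.070 without A33 and A55, -0.30 without A51 as well, and -0.11 to 0.20 leaving out 1. *Ppargc1a* was, in the same order, -0.0098, -0.11, -0.00444, -0.29, -0.36, -0.074, -0.38, -0.25, -0.51 and -0.11 to 0.32.

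With 5 libraries a genotype and the fat-rich libraries all WT, fits with scores have few residual degrees of freedom.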
